A study of Mus musculus with 2 samples.

Results

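Shared gene-end peaks are places at the start or end of a protein-coding gene that were listed as peaks both in a library prepared for FLAG-tagged ALKBH5 and in its IgG control. They were the 985 peaks of the ALKBH5 list on chromosomes 1 to 19, X and Y that had at least 1 bp in common with an IgG peak and whose summit, the highest point of the peak, lay within 1 kb of the start or end coordinate of a protein-coding gene. The ALKBH5 list held 12333 peaks and the IgG list 3378, of which 12327 and 3373 lay on these chromosomes. The members made up 16.3% of the 6039 ALKBH5 gene-end peaks (95% exact binomial interval 15.4 to 17.3) and 53.8% of the 1832 ALKBH5 peaks shared with IgG (51.5 to 56.1). The remaining 5054 ALKBH5 gene-end peaks had no overlapping IgG peak and are called ALKBH5-only gene-end peaks here. The members were chosen by measured values, the listed peak positions of both libraries, so their overlap with IgG and their nearness to gene ends are given as description.

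The series asked whether ALKBH5 acts on gene expression through contact with DNA. It holds 1 ALKBH5-FLAG library and 1 IgG library, both from Hepa1-6, a mouse hepatoma cell line grown in culture. Per the labels' protocols, the cells of both groups had been exposed overnight to an adenovirus that carries FLAG-ALKBH5, so the IgG library is a control for the antibody and not for the virus. The sources differ on the cells and the virus: the series text speaks of primary hepatocytes, and the IgG sample carries the treatment tag ALKBH6-FLAG although ALKBH5 stands in its protocol. Which antibody was used for ALKBH5-FLAG was not given in the sources used here. With 1 library in each group, no difference between the libraries has a replicate check, no test was made, and intervals cover counting error only. Peaks do not measure expression, and the hepatocyte label could not be checked against them. Of 29 hepatocyte identity genes, 0 had a shared gene-end peak, with an exact upper limit of 11.9%, beside 5.51% over all protein-coding genes. Any ALKBH5 gene-end peak was at 2 of the 29 (6.90%), beside 30.4% over all protein-coding genes.

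ALKBH5 is known as an enzyme of the nucleus that removes the methyl group from N6-methyladenosine in RNA. In CUT&Tag, an antibody on chromatin tethers the transposase Tn5, which cuts nearby DNA and ties sequencing adapters to it. Tn5 also cuts open chromatin without a tether, and a reaction with non-specific IgG records such background. Promoters of active genes are open, many lie in CpG islands, and some serve a pair of genes transcribed in opposite directions.

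The promoters below are shown because a member summit lay inside the printed window. They are the 6 with the highest ALKBH5 fold enrichment among the genes named by rank or as leading genes of a gene list. Genes named further on only as part of a pair were left out. Ddx42, which is also in such a pair, entered through its gene list. Each covers 250 bases before to 50 bases after a transcript start, 5′ to 3′ along the gene, and comes from RefSeq on the build GRCm38.p6. Capitals mark the GC box GGGCGG, the core of sites of Sp1 and related factors, and CCAAT, the core of sites of NF-Y, each on either strand (CCGCCC and ATTGG when reversed). Slc35f5, a gene of the SLC35 transporter family, is read from chr1:125560752-125561051 on the + strand. Lta4h, which encodes the leukotriene A4 hydrolase, is read from chr10:93453146-93453445 on the + strand. AW549877 is read from chr15:3995697-3995996 on the − strand. Hsph1, which encodes a large heat shock protein of the Hsp110 family, is read from chr5:149636266-149636565 on the − strand. Ddx42, a DEAD-box RNA helicase gene, is read from chr11:106216676-106216975 on the + strand. Pdia3, which encodes a disulfide isomerase of the endoplasmic reticulum, is read from chr2:121413652-121413951 on the + strand.
Slc35f5: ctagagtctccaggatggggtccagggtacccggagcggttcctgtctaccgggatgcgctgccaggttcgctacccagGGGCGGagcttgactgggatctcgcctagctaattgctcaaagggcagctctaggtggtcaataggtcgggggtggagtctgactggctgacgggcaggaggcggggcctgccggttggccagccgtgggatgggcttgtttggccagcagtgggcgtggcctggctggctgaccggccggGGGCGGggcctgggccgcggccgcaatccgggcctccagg
Lta4h: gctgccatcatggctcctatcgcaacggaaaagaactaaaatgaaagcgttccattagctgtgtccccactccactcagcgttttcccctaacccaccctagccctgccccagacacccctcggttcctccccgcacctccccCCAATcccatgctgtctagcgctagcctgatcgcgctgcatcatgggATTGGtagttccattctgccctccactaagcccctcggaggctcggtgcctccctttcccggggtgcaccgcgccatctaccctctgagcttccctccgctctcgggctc
AW549877: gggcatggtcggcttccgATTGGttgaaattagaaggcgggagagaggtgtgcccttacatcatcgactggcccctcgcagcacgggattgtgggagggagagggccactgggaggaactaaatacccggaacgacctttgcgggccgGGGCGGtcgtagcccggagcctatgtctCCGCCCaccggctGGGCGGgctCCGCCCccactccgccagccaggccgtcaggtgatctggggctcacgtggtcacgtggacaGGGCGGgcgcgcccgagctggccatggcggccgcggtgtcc
Hsph1: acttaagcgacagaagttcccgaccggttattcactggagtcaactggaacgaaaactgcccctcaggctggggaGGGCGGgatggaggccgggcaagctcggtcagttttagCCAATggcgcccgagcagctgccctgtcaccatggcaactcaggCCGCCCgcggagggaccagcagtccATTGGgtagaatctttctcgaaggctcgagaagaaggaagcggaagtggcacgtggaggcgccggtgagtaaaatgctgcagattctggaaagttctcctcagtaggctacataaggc
Ddx42: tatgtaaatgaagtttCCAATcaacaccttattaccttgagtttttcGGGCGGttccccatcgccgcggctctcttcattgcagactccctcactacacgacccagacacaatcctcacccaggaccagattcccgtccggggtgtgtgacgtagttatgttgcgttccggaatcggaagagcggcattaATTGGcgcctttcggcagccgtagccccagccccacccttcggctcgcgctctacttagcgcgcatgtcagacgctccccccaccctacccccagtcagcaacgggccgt
Pdia3: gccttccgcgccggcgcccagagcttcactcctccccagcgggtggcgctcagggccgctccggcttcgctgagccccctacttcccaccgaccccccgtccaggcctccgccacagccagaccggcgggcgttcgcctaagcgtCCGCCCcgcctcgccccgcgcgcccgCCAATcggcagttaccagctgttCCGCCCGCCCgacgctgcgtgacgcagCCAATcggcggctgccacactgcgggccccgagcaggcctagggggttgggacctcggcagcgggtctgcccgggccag
The windows differed in motif content. Slc35f5 had 2 GC boxes and 0 CCAAT matches, and Lta4h had 0 GC boxes and 2 CCAAT matches. AW549877 held 5 GC boxes and 1 CCAAT match, Hsph1 2 of each, Ddx42 1 GC box and 2 CCAAT matches, and Pdia3 3 GC boxes and 2 CCAAT matches. The summits of the 2 libraries lay apart at these promoters, and at Slc35f5, Hsph1 and Ddx42 the IgG summit fell before the printed window. The ALKBH5 summit was 131 bp before the printed transcript start of Slc35f5 and the IgG summit 257 bp before it. At Lta4h the ALKBH5 summit was 16 bp before the start and the IgG summit 184 bp before it. At Hsph1 the distances were 88 bp for ALKBH5 and 317 bp for IgG, and at Ddx42 they were 68 bp and 647 bp, all before the start. At AW549877 and Pdia3 the IgG summit was the nearer one: the ALKBH5 summits lay 130 and 234 bp before the start, and the IgG summits 93 and 127 bp before it. A printed transcript start can differ from the gene's 5′ coordinate, which is used in the later counts. From that coordinate the ALKBH5 summit was 343 bp away at Slc35f5, 95 bp at Hsph1 and 29 bp at Ddx42.

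Heights in both libraries are the authors' pileups, the number of fragments stacked at the summit, and their fold enrichments, the pileup over the local background with 1 added to each. Read totals were not given in the sources used here, and the values of the lists are therefore set side by side and not divided by each other. Across the 985 members the ALKBH5 pileup had a median of 16 fragments (interquartile range 11 to 22, lowest 3, highest 94), and the overlapping IgG peak had a median of 6 (4 to 8, lowest 2, highest 571). The median fold enrichment was 7.37 in the ALKBH5 list and 5.23 in the IgG list. ALKBH5-only gene-end peaks had a median ALKBH5 pileup of 10 (7 to 13), a fold of 5.79 and a width of 429 bp, where the members were 643 bp wide. Shared peaks away from gene ends had a median pileup of 13 in the ALKBH5 library and 7 in the IgG library. Members were tall within the ALKBH5 list: 900 of the 985 (91.4%, 89.4 to 93.0) were in its upper 50% by pileup and 386 (39.2%, 36.1 to 42.3) in its top 10%. At like ALKBH5 pileup the gap in width was smaller. The median widths were 378 bp in members and 301 bp in ALKBH5-only peaks at 3 to 7 fragments, 493.5 and 412 bp at 8 to 11, 631.5 and 572 bp at 12 to 19, and 790.5 and 725.5 bp at 20 to 39. At 40 or more fragments they were 962.5 bp in 24 members and 977 bp in 3 ALKBH5-only peaks. A wider peak overlaps another more easily, so width is tied to the choice of members. IgG peaks at the members held few fragments, at an unknown depth, but were not low within the IgG list. Their median of 6 stood beside 5 over all IgG peaks and 3 in IgG peaks that overlapped no ALKBH5 peak. In 101 members the IgG pileup was 2 or 3 fragments, in 128 it was 10 or more, and in 8 it was 20 or more.

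**Figure D1:**
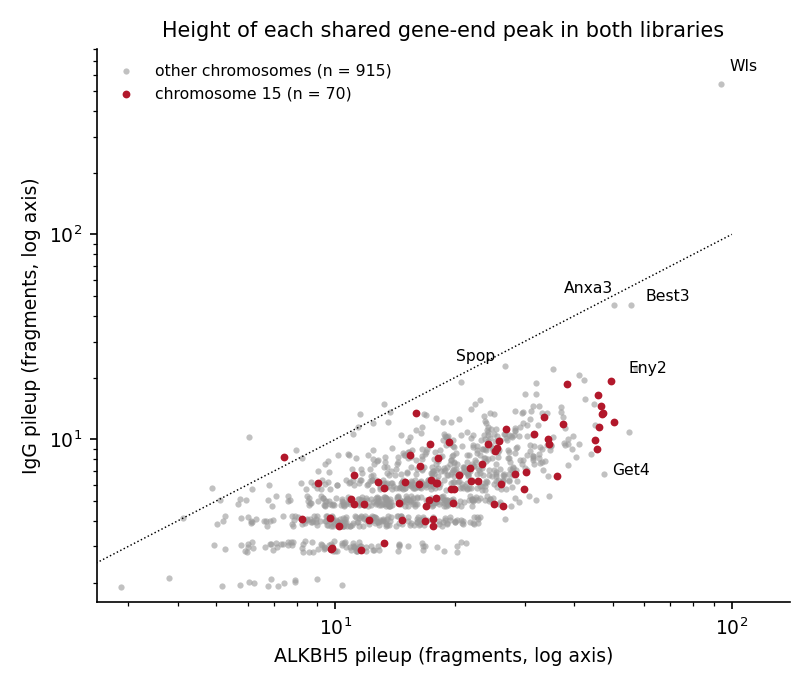
Pileup of each shared gene-end peak in the ALKBH5 library (horizontal, fragments, log axis) and in the overlapping IgG peak (vertical, fragments, log axis), 1 point for each of the 985 members, with points moved slightly so that equal values can be seen. Red points are the 70 members on chromosome 15, grey points the 915 on other chromosomes, and the dotted line marks equal pileups; Wls lies far above the line with 94 fragments for ALKBH5 and 571 for IgG.

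The member with the highest ALKBH5 fold was also the one with the highest IgG fold. It lay 903 bp from the 3′ end of Wls, which encodes the carrier that brings Wnt proteins to the cell surface, at chr3:159939318-159939781. Its pileup was 94 fragments with a fold of 24.9 in the ALKBH5 library, and 571 fragments with a fold of 44.1 in the IgG library. Next by ALKBH5 fold came Eif4ebp2, a repressor of cap-dependent translation (chr10:61452809-61453312), with 45 fragments and a fold of 15.1 for ALKBH5 and 19 fragments and a fold of 11.3 for IgG. Arrb1, which encodes an arrestin that binds activated receptors, had 27 fragments and a fold of 13.1 for ALKBH5, and 10 fragments and a fold of 8.23 for IgG. Anxa3, an annexin gene, had pileups of similar size in both libraries, with 53 fragments and a fold of 13.0 for ALKBH5, and 47 fragments and a fold of 18.96 for IgG. Next to these, 5 members had ALKBH5 folds between 12.1 and 13.0. They were at Relt, a gene of the tumour necrosis factor receptor family, Slc35f5, Lta4h, Nol6 and 2310009B15Rik. At these 5 the ALKBH5 pileup was 23 to 39 fragments and the IgG pileup 4 to 11.

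Ranked by pileup, the tallest members after Wls were at Best3, a bestrophin chloride channel gene, with 57 fragments for ALKBH5 and 43 for IgG, and at Rdm1, with 55 and 21. Atf6b, which encodes a transcription factor of the unfolded protein response, had 54 fragments for ALKBH5 and 11 for IgG in a peak 672 bp from its 3′ end. Eny2 and Nudcd1, neighbours under 1 peak, had 51 fragments for ALKBH5 and 20 for IgG. Rrm2b, which encodes a p53-responsive subunit of ribonucleotide reductase, had 50 for ALKBH5 and 12 for IgG. AW549877, Get4 and Dazap2 each had 47 fragments for ALKBH5, and 14, 7 and 13 for IgG in that order. Tall ALKBH5 members therefore ranged widely in IgG, from 7 fragments at Get4 to 571 at Wls.

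By fold of the IgG peak, the list after Wls, Anxa3 and Best3 went on with Spop, which encodes a substrate adaptor of a CUL3 ubiquitin ligase. Spop had 27 fragments and a fold of 8.14 for ALKBH5, and 22 fragments and a fold of 12.4 for IgG. The pairs Gm3448 with Gm3435 and Gm3417 with 9030025P20Rik had IgG folds of 12.3 and 11.9, with 37 and 40 fragments for ALKBH5 and 22 and 21 for IgG. Both peaks lay 36 bp from a gene start on chromosome 17 with their summits 45 bp apart between the libraries, so these loci may be near-identical copies, and the placement of their reads is uncertain. The pair 1700056E22Rik and Dusp10, the second a phosphatase of MAP kinases, lay between them with an IgG fold of 12.3 and had 22 fragments for ALKBH5 and 19 for IgG. The pair Tbc1d17 and Akt1s1, the second a subunit of mTORC1, had 34 for ALKBH5 and 19 for IgG.

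In 15 members the IgG pileup was equal to the ALKBH5 pileup or above it. It was above in 7, namely Wls, Spire2, Sgms2, Gm32584, Gp9, Adamts12 and Ipp, and equal in 8, namely Pigl, Nav1, Smc5, Arid5a, Rbm25, Gpcpd1, Il15 and Rplp1. These genes were named after their values were seen, and the comparison is of pileups as deposited, with depth unknown. Apart from Wls, their ALKBH5 pileups were 4 to 14 fragments and their IgG pileups 4 to 15. At the edge of the 1 kb rule, Npm1, Slc11a1 and Limk1 lay just inside at 999, 992 and 984 bp from a gene end, with 14, 24 and 22 fragments for ALKBH5 and 6, 8 and 7 for IgG. D5Ertd579e, Gtf3c6 and Abcb8 lay just outside at 1004, 1008 and 1021 bp, with 7, 16 and 16 fragments for ALKBH5 and 5, 11 and 7 for IgG.

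The peaks of the libraries covered the same stretch but seldom shared a summit. The ALKBH5 summit and the IgG summit were a median of 138 bp apart (interquartile range 75 to 208, highest 982). They were within 100 bp in 343 members (34.8%, 31.8 to 37.9) and over 500 bp apart in 14. The IgG peak, with a median width of 246 bp, lay wholly inside the ALKBH5 peak in 766 members (77.8%, 75.04 to 80.33). The ALKBH5 summit lay inside the IgG peak in 459 (46.6%, 43.4 to 49.8). Nearly every member had a single partner: 4 members overlapped 2 IgG peaks, and 5 of the 984 IgG peaks overlapped 2 members.

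Most members lay at gene starts. A start here is the gene's 5′ coordinate, at which a transcript start lay in 60.5% of the genes with a strand. A strand could be assigned to at least 1 gene near 807 of the 985 members, and 781 of these (96.8%, 95.3 to 97.9) lay within 1 kb of a gene's 5′ coordinate. The share was 97.3% (96.8 to 97.8) in ALKBH5-only gene-end peaks. A member covered the start coordinate itself in 646 of 781 cases (82.7%, 79.9 to 85.3), against 63.9% (62.4 to 65.3) of 4086 ALKBH5-only peaks at starts, which were narrower. Member summits lay a median of 3 bp before the start (interquartile range from 117 bp before to 197 bp after), and the ALKBH5-only summits 39 bp after it. Of the member summits, 65.4% (62.0 to 68.8) were within 250 bp of the start, against 61.3% (59.8 to 62.8) of the ALKBH5-only summits.

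The summits of the 2 libraries were laid out differently around the same starts. In the 100 bp just before the start lay 22.9% of the ALKBH5 summits of members (20.01 to 26.03) and 11.7% of their IgG summits (9.49 to 14.1). ALKBH5-only peaks had 21.6% of their summits there. From 100 to 300 bp before the start the shares were 16.6% for the ALKBH5 summits (14.1 to 19.4) and 22.9% for the IgG summits (20.01 to 26.03). From 100 to 300 bp after the start they were 18.4% for ALKBH5 (15.8 to 21.3) and 27.4% for IgG (24.3 to 30.7). The ALKBH5 summits thus peaked just before the start, and the IgG summits of the same peaks were more often 100 to 300 bp from it on either side. Within 250 bp of the start lay 70.0% of the IgG summits (66.7 to 73.2), beside 65.4% of the ALKBH5 summits (62.0 to 68.8). The IgG pileup at these 781 members had a median of 6 fragments, and its effect on the summit positions was not tested. In the 100 bp after the start the shares were 14.7% for ALKBH5 (12.3 to 17.4) and 16.4% for IgG (13.9 to 19.2), a difference within the counting intervals. Fragment lengths and peak settings were not given in the sources used here, and their part in this layout was not tested.

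**Figure D2:**
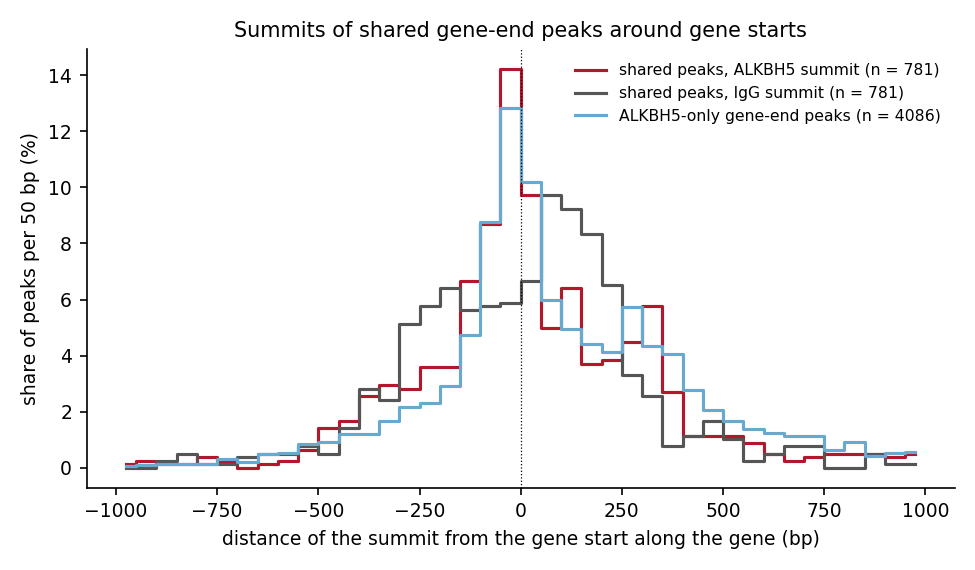
Distance of summits from the gene start along the gene (horizontal, bp, negative before the start) and share of peaks in each class of 50 bp (vertical, %), for the ALKBH5 and the IgG summits of the same 781 shared peaks at gene starts and for 4086 ALKBH5-only peaks at gene starts. The ALKBH5 summits rise to their highest share in the last class before the start, where the IgG summits have lower shares than they have further out on either side.

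At 26 members the annotation gave a 3′ end and no start (3.22% of the 807, 2.12 to 4.69). Near 5 of them lay another gene whose strand was not known, and 2 lay within 1 kb of another annotated transcript start. Their median pileup was 14.5 fragments for ALKBH5 and 6.5 for IgG, against 16 and 6 in the 781 members at starts. In 5 of the 26 (19.2%, 6.55 to 39.4) the IgG pileup was at least the ALKBH5 pileup, namely Wls, Sgms2, Gm32584, Pigl and Arid5a. The same held for 7 of the 781 members at starts (0.896%, 0.361 to 1.84). This split was looked at after the values were seen, and it compares pileups as deposited, with depth unknown.

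Many members stood between neighbouring genes. Of the 985 members, 226 (22.9%, 20.4 to 25.7) were within 1 kb of an end of more than 1 gene, against 17.6% (16.6 to 18.7) of ALKBH5-only gene-end peaks. The excess was not seen at all heights. With an ALKBH5 pileup of 20 to 39 fragments, 89 of 320 members (27.8%, 23.0 to 33.1) were near more than 1 gene, against 45 of 286 ALKBH5-only peaks (15.7%, 11.7 to 20.5). At 12 to 19 fragments the shares were 25.1% in members (20.9 to 29.7) and 21.6% in ALKBH5-only peaks (19.4 to 23.8). At 8 to 11 they were 16.1% (11.2 to 22.1) and 18.1% (16.4 to 19.9), and at 3 to 7 they were 5.45% (1.14 to 15.1) and 13.5% (11.7 to 15.3). The counting intervals overlapped in each of these lower classes. At 40 or more fragments, 4 of 24 members (16.7%, 4.74 to 37.4) and 0 of 3 ALKBH5-only peaks were near more than 1 gene. Of the 223 members with exactly 2 genes, 135 lay at the starts of both, and in 131 of these the genes ran on opposite strands, the arrangement of a divergent promoter. The share of peaks at the starts of both genes was 60.5% for members and 59.95% for ALKBH5-only peaks (521 of 869), within counting error of each other. In 510 of those 521 ALKBH5-only pairs the genes also ran on opposite strands.

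Among members near more than 1 gene, the following pairs had high ALKBH5 folds and were chosen after their values were seen. Anxa5, an annexin gene, and 1810062G17Rik had their starts 164 and 214 bp from the summit at chr3:36475399-36476023, with 30 fragments for ALKBH5 and 8 for IgG. Odr4 and Tpr, the second a component of the nuclear pore basket, lay 1 and 277 bp from a summit with 25 fragments for ALKBH5 and 5 for IgG. Ddx42 and Ccdc47 lay 29 and 335 bp from the summit at chr11:106216224-106217407, with 36 fragments for ALKBH5 and 9 for IgG. In each of these pairs a single peak in each library served both genes, so it cannot be assigned to either.

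Conversely, 8 genes had 2 member peaks within 1 kb of their ends. They were Gnb2, Spire2, Thap1, Timm21 and the neighbouring pairs Lpxn with Zfp91 and Fam210a with Rnmt. At Gnb2, which encodes a beta subunit of heterotrimeric G proteins, the ALKBH5 peaks had 20 and 16 fragments over an IgG peak of 5. At Lpxn and Zfp91 they had 25 and 22 fragments over an IgG peak of 6. At Spire2 the ALKBH5 pileups were 24 and 14, and the IgG pileups beside them 9 and 15.

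Members also lay near genes of short RNAs. Within 1 kb of an end of a small nuclear RNA gene lay 7 of the 985 members (0.711%, 0.286 to 1.46) and 6 of the 5054 ALKBH5-only gene-end peaks (0.119%, 0.0436 to 0.258). They included Rnu7, the RNA of histone mRNA processing, beside Grcc10, and Rnu12, an RNA of the minor spliceosome, beside Poldip3. The peaks had 28 and 24 fragments for ALKBH5, and 9 and 8 for IgG. Small nuclear RNA genes have many near copies, so the placement of reads there is uncertain. For microRNA genes the counts were 9 members (0.914%, 0.419 to 1.73) and 31 ALKBH5-only peaks (0.613%, 0.417 to 0.870), and for tRNA genes 2 members (0.203%, 0.0246 to 0.732) and 28 ALKBH5-only peaks (0.554%, 0.368 to 0.800). For snoRNA genes they were 1 member, at Traf7 (0.102%, 0.00257 to 0.564), and 21 ALKBH5-only peaks (0.416%, 0.257 to 0.634). Ends of long non-coding RNA genes lay within 1 kb of 139 members (14.11%, 11.997 to 16.44) and 592 ALKBH5-only peaks (11.7%, 10.8 to 12.6).

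Base composition was compared over promoters, since a genome sequence was not used here. A promoter sequence starting within 1 kb of the gene's 5′ coordinate was matched to 15752 of 21887 protein-coding genes. In 877 of them a member lay at the gene start, in 4160 an ALKBH5-only peak and in 10715 no ALKBH5 peak. The observed over expected CpG ratio had a median of 0.818 in promoters with a member (interquartile range 0.690 to 0.936). The median was 0.818 with an ALKBH5-only peak (0.677 to 0.944) and 0.344 with no ALKBH5 peak (0.147 to 0.702). A ratio of 0.6 or more was reached by 87.0% of promoters with a member (84.6 to 89.2), 83.2% with an ALKBH5-only peak (82.0 to 84.3) and 32.5% with no ALKBH5 peak (31.6 to 33.4). Members thus lay at CpG-rich promoters as ALKBH5-only peaks did, with few CpG-poor promoters among them. At like ALKBH5 pileup the medians were 0.717 with a member and 0.778 with an ALKBH5-only peak at 3 to 7 fragments, 0.813 and 0.828 at 8 to 11, 0.818 and 0.834 at 12 to 19, and 0.827 and 0.828 at 20 to 39. The median GC content was 63.0% with a member, 62.3% with an ALKBH5-only peak and 52.3% with no ALKBH5 peak.

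**Figure D3:**
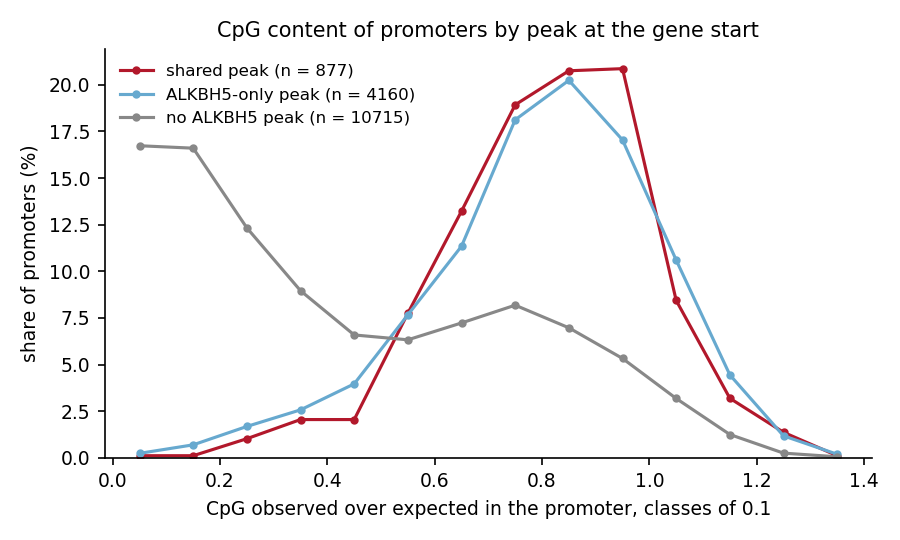
Observed over expected CpG ratio of the 300-base promoter (horizontal, classes of 0.1) and share of promoters in each class (vertical, %), for promoters with a shared peak, an ALKBH5-only peak or no ALKBH5 peak at the gene start. The curves of the shared and the ALKBH5-only peaks lie close together, both with a median of 0.818, and promoters without a peak gather at low ratios with a median of 0.344.

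Short motifs were counted in the same 300 bases on both strands. A match describes letters and is not a binding site. The GC box GGGCGG was in 77.2% of promoters with a member (74.3 to 79.9), 71.4% with an ALKBH5-only peak (70.0 to 72.8), 34.7% with no ALKBH5 peak and 46.7% of all promoters. CCAAT was in 46.2% with a member (42.8 to 49.5), 41.2% with an ALKBH5-only peak (39.7 to 42.7), 38.2% with no peak and 39.4% of all promoters. Of 11 motifs searched in the 300 bases, GGGCGG and CCAAT had shares in members and ALKBH5-only promoters separated beyond their counting intervals, and for CCAAT the gap between the intervals was small. In the 100 bases nearest the start the intervals overlapped for both: GGGCGG was in 51.4% with a member (48.1 to 54.8) and 47.6% with an ALKBH5-only peak (46.1 to 49.2), and CCAAT in 19.95% with a member (17.4 to 22.8) and 16.9% with an ALKBH5-only peak (15.8 to 18.1). The TATA box TATAAA was in 4.56% with a member (3.28 to 6.16), 5.36% with an ALKBH5-only peak (4.70 to 6.09), 17.6% with no peak and 13.7% of all promoters.

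For the ETS motif CCGGAAG the shares were 20.4% with a member (17.8 to 23.2), 23.4% with an ALKBH5-only peak (22.2 to 24.8) and 12.05% of all promoters. In the 100 bases nearest the start its intervals were separated, with 10.7% with a member (8.75 to 12.96) and 14.8% with an ALKBH5-only peak (13.7 to 15.9). For the CRE TGACGTCA, the element bound by CREB and ATF factors, they were 4.22% with a member (2.99 to 5.77), 3.65% with an ALKBH5-only peak (3.10 to 4.27) and 2.38% of all promoters. Its core TGACG, which every CRE contains, was in 38.9% with a member, 36.6% with an ALKBH5-only peak and 24.1% of all promoters. The AP-1 motif TGANTCA was in 5.02% with a member (3.67 to 6.68), 3.94% with an ALKBH5-only peak (3.37 to 4.58) and 7.0% of all promoters. The E-box CACGTG was in 10.9% with a member, 12.1% with an ALKBH5-only peak and 8.01% of all promoters. The NRF1 motif GCGCATGCG was in 5.13% with a member, 5.12% with an ALKBH5-only peak and 2.53% of all promoters. The YY1 motif AAGATGGC was in 4.22% with a member, 5.65% with an ALKBH5-only peak and 3.28% of all promoters. The ZNF143 motif ACTACAA was in 5.13% with a member, 4.95% with an ALKBH5-only peak and 3.85% of all promoters.

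The share of gene-end peaks overlapped by IgG differed between chromosomes. It was highest on chromosome 15, at 70 of 281 (24.9%), and lowest on X, at 10 of 127 (7.87%), and chromosome Y had no member. At these extremes the local background of the peaks differed in the same sense. Its median was 0.88 fragments for ALKBH5 and 0.210 for IgG on chromosome 15, the highest of both lists, and 0.34 for ALKBH5 and 0.105 for IgG on X, the lowest of both. Between the extremes the orders could differ. Chromosome 10 had a share of 20.9% with an ALKBH5 background of 0.64, and chromosome 11 a share of 17.5% with 0.86. Chromosome 15 held 7.11% of the members but 15 of the 50 with the highest ALKBH5 pileup, among them Eny2 with Nudcd1, Rrm2b, AW549877 and Dazap2, and 7 of the 50 with the highest fold. Within classes of ALKBH5 pileup, the counting intervals of the shared fraction on chromosome 15 and on the others overlapped in each class. At 12 to 19 fragments it was 26.0% on chromosome 15 (17.6 to 36.0) and 21.4% on the others (19.5 to 23.4), and at 20 to 39 fragments 45.5% (31.97 to 59.45) and 53.5% (49.3 to 57.8). The number of copies of each chromosome in these cells was not given in the sources used here, and its part in the result was not tested.

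**Figure D4:**
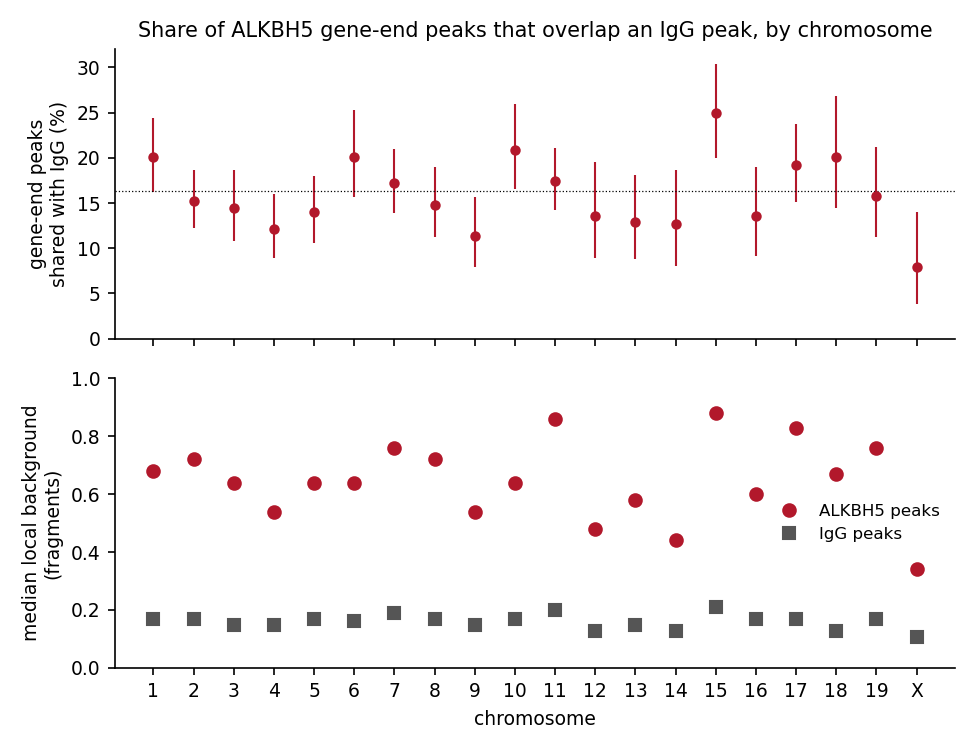
Share of ALKBH5 gene-end peaks that overlap an IgG peak on each chromosome (top, %, with 95% exact intervals, dotted line at 16.3% for all) and the median local background of all peaks of each list (bottom, fragments). Chromosome 15 is highest in all 3 series of points and chromosome X lowest.

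The members touched 1206 protein-coding genes, 5.51% of 21887, where any ALKBH5 gene-end peak touched 6650 (30.4%). A shared peak was thus present at 18.1% of the genes with an ALKBH5 gene-end peak. Of 20 protein-coding genes picked for inspection, Hspa8, which encodes the constitutive Hsc70 chaperone, was the one with a shared peak. Its pileup was 33 fragments and its fold 8.59 for ALKBH5, and 9 fragments and 6.65 for IgG. Alkbh5, Fto, Gcgr, Atf3, Atf4, Hsp90ab1, Rps23, Rpl13a, Jun, Fos, Ccne1, Ccne2, Polr2a and Gapdh had an ALKBH5 gene-end peak that was not shared. Egfr, Myc, Actb, Alb and Hnf4a had no ALKBH5 gene-end peak.

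At the 1 bp overlap, genes of protein folding and stress had the highest shares of the 22 gene lists. This order depended on the overlap and the threshold. With a −log10 q of 5 or more in both lists the chaperone list had 2 of 42 genes and the stress list 1 of 30, where histones had 5 of 63, cyclins and replication genes 4 of 44 and splicing factors 6 of 67. With 50% of each peak shared they had 1 gene each, where translation had 3 of 46 and splicing 4 of 67. Of 42 heat shock and chaperone genes, 10 had a shared peak (23.8%, 12.1 to 39.5) and 33 any ALKBH5 gene-end peak. Hsph1 led with 32 fragments and a fold of 11.3 for ALKBH5, and 8 fragments and a fold of 6.74 for IgG. Pdia3 had 34 fragments for ALKBH5 and 8 for IgG, Hspa13, an Hsp70 family member, 16 and 5, and Dnaja1, an Hsp40 co-chaperone, 25 and 5. Of 30 genes of the integrated and endoplasmic reticulum stress responses, 7 had a shared peak (23.3%, 9.93 to 42.3) and 23 any. After Atf6b these were led by Ppp1r15b, a regulatory subunit of the eIF2α phosphatase, with 29 fragments for ALKBH5 and 5 for IgG. Eif2ak4, the eIF2α kinase GCN2, had 16 for ALKBH5 and 4 for IgG. Ddit4, an inhibitor of mTORC1, had 23 for ALKBH5 and 5 for IgG. Counted among the genes with any ALKBH5 gene-end peak, the shared part was 30.3% in the chaperone list and 30.4% in the stress list, beside 18.1% over all genes. It was 4 of 10 genes in the clock list and 3 of 10 in the glucagon list, so the first 2 lists did not stand apart on this count.

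Genes of translation and splicing followed. Shared peaks stood at 9 of 46 translation initiation and elongation genes (19.6%, 9.36 to 33.9), and 37 had any ALKBH5 gene-end peak. Eif5, a GTPase-activating initiation factor, had 22 fragments for ALKBH5 and 5 for IgG, and Eef1d, an elongation factor subunit, 16 and 5. Pabpc1, the poly(A)-binding protein gene, had 45 for ALKBH5 and 16 for IgG, and Eif5a 33 and 8. Of 67 splicing factor and hnRNP genes 13 had a shared peak (19.4%, 10.8 to 30.9) and 51 any. Sf1, the branch point binding protein gene, had 22 fragments for ALKBH5 and 16 for IgG, Hnrnph3 17 and 9, and Srsf2 25 and 6. Cytosolic ribosomal protein genes had a shared peak in 11 of 83 cases (13.3%, 6.81 to 22.5) and any in 50. Rpl10 led with 19 fragments for ALKBH5 and 5 for IgG, and Rpl37 followed with 27 and 7. Processed copies of ribosomal protein genes are common in the genome, so read placement there is uncertain. Mitochondrial ribosomal protein genes had a shared peak in 7 of 78 (8.97%, 3.68 to 17.6), led by Mrps16 with 13 fragments for ALKBH5 and 4 for IgG. Over all genes 5.51% had a shared peak. Among genes with any ALKBH5 gene-end peak, the shared part was 25.5% in splicing, 24.3% in translation and 22.0% in cytosolic ribosomal protein genes. It was 14.3% in mitochondrial ribosomal protein genes, beside 18.1% over all genes.

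Genes of the cell cycle, histones and transcription had shares of 7.55% to 15.9%, beside 5.51% over all genes. Among cyclins, CDKs and replication licensing genes, 7 of 44 had a shared peak (15.9%, 6.64 to 30.1). Cdk4, a kinase of the G1 phase, had 33 fragments for ALKBH5 and 9 for IgG, Pcna, the sliding clamp of DNA replication, 19 and 9, and Cdk1 18 and 6. Replication-dependent histone genes counted 8 of 63 (12.7%, 5.65 to 23.5), which rest on 4 peaks because neighbours share them. The peak at H2ac7 and H2bc7 had 15 fragments for ALKBH5 and 10 for IgG, and the peak at H2ac13, H2bc13 and H3c10 had 16 and 11. These genes are near-identical copies in clusters, so reads there are uncertain in placement. RNA polymerase II and general factor genes counted 4 of 53 (7.55%, 2.09 to 18.2), led by Taf8, a TFIID subunit, with 23 fragments for ALKBH5 and 4 for IgG. RNA helicases counted 5 of 53 (9.43%, 3.13 to 20.7), led by Ddx42 and by Ddx3x with 16 for ALKBH5 and 3 for IgG. Proteasome subunits counted 3 of 39 (7.69%, 1.62 to 20.9), led by Psma1 with 13 for ALKBH5 and 4 for IgG. Among genes with any ALKBH5 gene-end peak, the shared part was 26.9% in the cyclin list and 19.5% in histones. It was 16.7% in RNA helicases, 13.6% in proteasome subunits and 13.3% in polymerase II and general factor genes, beside 18.1% over all genes.

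Signalling and metabolic lists were small, and their intervals wide. Over all genes 5.51% had a shared peak and 30.4% any ALKBH5 gene-end peak. The intervals of the shared peaks in the clock, glucagon and EGFR lists all included this 5.51%. Of 22 circadian clock genes 4 had a shared peak (18.2%, 5.19 to 40.3) and 10 any. Nr1d2, which encodes the repressor REV-ERBβ, had 28 fragments for ALKBH5 and 6 for IgG, and Cry1, a repressor of the clock, 14 and 4. Of 23 genes of glucagon signalling and gluconeogenesis 3 had a shared peak (13.0%, 2.78 to 33.6) and 10 any. Pcx, the pyruvate carboxylase gene, had 27 fragments and a fold of 10.8 for ALKBH5, and 9 fragments and a fold of 7.61 for IgG. Creb1 had 16 for ALKBH5 and 11 for IgG, and its co-activator gene Crebbp 12 and 5. Of 29 genes of EGFR, insulin and mTORC1 signalling 3 had a shared peak (10.3%, 2.19 to 27.4) and 20 any. The 3 were Nras with 12 fragments for ALKBH5 and 4 for IgG, Sos1 with 12 and 5, and Rps6kb1 with 5 and 2. The shared part of the genes with any ALKBH5 gene-end peak was 4 of 10 in the clock list and 3 of 10 in the glucagon list. In the EGFR list it was 3 of 20, below the 18.1% over all genes.

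The RNA methylation list, which holds the writers, erasers and readers of N6-methyladenosine, had a shared peak at 1 of 23 genes (4.35%, 0.110 to 21.9), while 15 had any ALKBH5 gene-end peak. The 1 gene was Hnrnpa2b1, which is also in the splicing list, with 28 fragments for ALKBH5 and 13 for IgG. Immediate early genes counted 2 of 35 shared (5.71%, 0.700 to 19.2) and 21 any, the 2 being Klf2 with 15 fragments for ALKBH5 and 6 for IgG, and Klf10 with 44 and 11. Zinc finger genes named Zfp counted 20 of 394 shared (5.08%, 3.13 to 7.73) and 172 any, and solute carrier genes 20 of 364 (5.49%, 3.39 to 8.36) and 106 any. These 4 lists lay near the 5.51% of all genes. Counted among the genes with any ALKBH5 gene-end peak, the shared part was 6.67% in the RNA methylation list, 9.52% in immediate early, 11.6% in Zfp and 18.9% in solute carrier genes, beside 18.1% over all genes. Zfp142 had 23 fragments for ALKBH5 and 12 for IgG, and among the solute carriers Slc25a32, a mitochondrial folate carrier gene, had 36 and 10. Neuronal, muscle and olfactory receptor genes had neither a shared nor any other ALKBH5 gene-end peak. The counts were 0 of 19, 0 of 18 and 0 of 1110, and the exact upper limits of these shares were 17.6%, 18.5% and 0.332%.

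**Figure D5:**
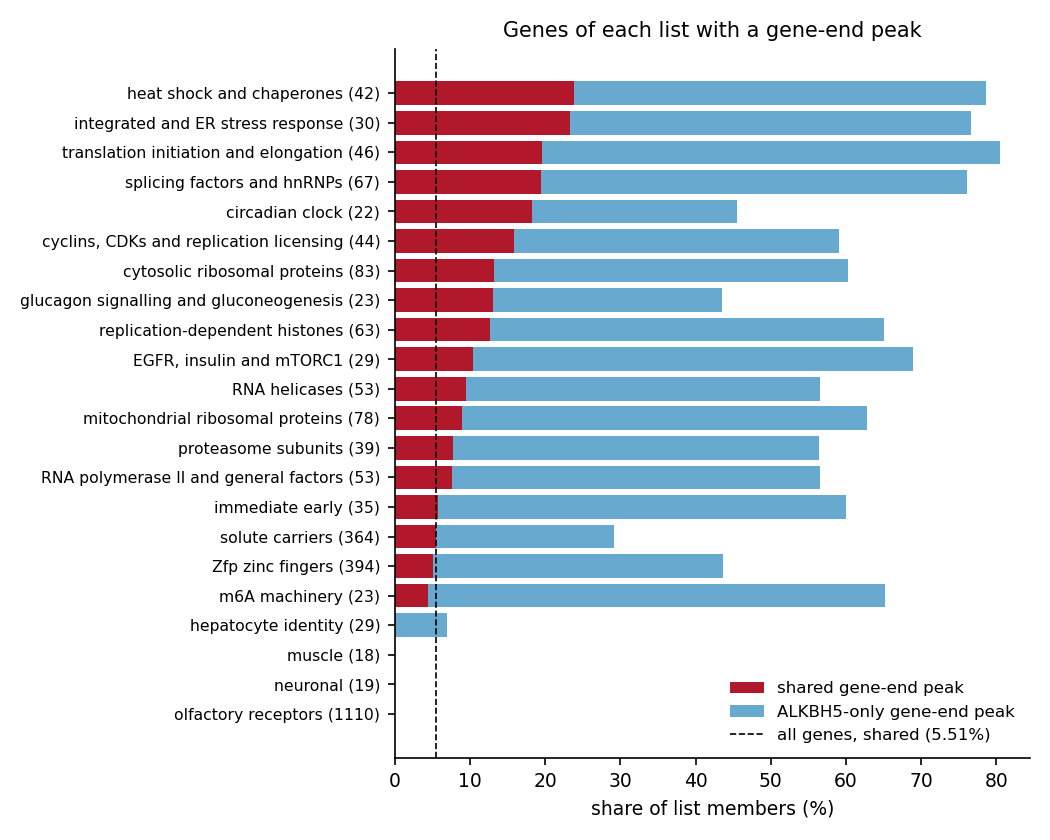
Share of the genes of each of the 22 lists (horizontal, %, number of matched genes in brackets) with a shared gene-end peak (red) or an ALKBH5-only gene-end peak (blue, added to the red). The dashed line marks the 5.51% of all genes with a shared peak; heat shock and stress response lists reach 23.8% and 23.3%, and the hepatocyte, muscle, neuronal and olfactory lists have 0 shared peaks.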

How the data were processed

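CUT&Tag peaks were listed for 1 ALKBH5-FLAG and 1 IgG library of infected Hepa1-6 cells, grouped by sample title. Per the submitters' processing notes, the tools were MACS2 (no version given), Bowtie2 2.2.9, R 3.4.1 and SAMtools 1.3.1, and the build was GRCm38 (mm10). Their roles and settings were not given in the sources used here. Peaks were listed per library and not pooled. The deposited pileup is a coverage signal, given as fragments stacked at the highest point. Fold enrichment, as deposited by the authors, is a ratio, pileup plus 1 over local background plus 1, and the background was solved from it. The −log10 p-value column and the −log10 q-value column were deposited without readable headers and were recognised by position in the MACS2 layout. Read totals were not given in the sources used here, and depth is unknown.

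Members were found by an overlap of 1 bp or more and a summit within 1 kb of a protein-coding gene's start or end, using RefSeq genes of GRCm38.p6. For a member over more than 1 IgG peak, the IgG peak with the highest pileup was taken. That table has no strand, so strand came from RefSeq promoter sequences of the same build, which matched 17492 of 21887 genes. In 60.5% of these a transcript start lay at the gene's 5′ coordinate. Of 1206 genes with a shared peak, 915 had a promoter sequence, 877 of them with the peak at the start. Promoters of chromosome 18 were not used here. Motifs were counted on both strands. All but 1 symbol of the gene lists matched, the exception being 1 of 23 in the circadian list.

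With 1 library per group no test was made. Shares carry 95% exact (Clopper-Pearson) binomial intervals, and medians interquartile ranges. The calls of overlap, gene end and gene start were checked on simulated peaks and genes with known answers, and the binomial intervals were not. Genes and peaks are not replicates of a condition. Named are the 10 members with the highest ALKBH5 fold, ALKBH5 pileup and IgG fold, up to 4 genes of each list by ALKBH5 fold, genes picked for inspection, and 3 peaks on each side of the 1 kb limit. A few members that this rule names are not reported here. The members and the lists were chosen with earlier results of these data known. Alternatives were an overlap of 50% of each peak, the ALKBH5 summit inside the IgG peak, a −log10 q or a fold of 5 or more in both lists, and windows of 250 bp and 3 kb. Python 3.11.15, pandas 2.3.3, numpy 2.4.6, SciPy 1.17.1 and matplotlib 3.10.9 were used.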

Additional observations from a re-analysis of the deposited data

How the results depend on the processing

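With at least 50% of each peak in common, 229 members remained (3.79% of ALKBH5 gene-end peaks) at 277 genes, with a median width of 557 bp and summits 122 bp apart. With the ALKBH5 summit inside the IgG peak there were 459 (7.60%) at 571 genes, with summits 79 bp apart and a median CpG ratio of 0.848. At a −log10 q of 5 or more in both lists there were 270 at 342 genes, 7.67% of the ALKBH5 gene-end peaks that reached this threshold. They had median pileups of 22 for ALKBH5 and 9 for IgG and a width of 738.5 bp, with 26.3% near more than 1 gene and 94.8% at the start. At a fold of 5 or more in both lists there were 559 at 698 genes, 11.99% of the ALKBH5 gene-end peaks that reached this fold. They had pileups of 19 for ALKBH5 and 7 for IgG and a width of 710 bp. The shares under these 2 thresholds thus have smaller denominators than the shares under the 2 stricter overlaps. Within 250 bp of a gene end there were 633 at 729 genes, with summits 127 bp apart, 15.2% near more than 1 gene and 99.2% at the start. Within 3 kb, 29.0% were near more than 1 gene and 93.3% at the start. The other 29 of these 60 values moved less than their interval or, for counts, by less than 1.5 times. Counts of list genes under the 50% overlap and the −log10 q of 5 moved by over 1.5 times in 34 of 44 cases, all 34 lower, as fewer members entered. The other 10 cases included the olfactory receptor, hepatocyte, neuronal and muscle lists, which had 0 throughout and could not fall. The rest were the RNA methylation and glucagon lists at the −log10 q of 5. The shares of all 11 motifs were lower in the 100 bases nearest the start, a shorter window. The difference in median width, members minus ALKBH5-only peaks, was 214 bp over all peaks, 59.5 to 81.5 bp in the 4 pileup classes below 40 fragments and −14.5 bp at 40 or more. No paired analysis was possible because each group had 1 library, and leaving out a replicate was not possible for the same reason. Unknown depth limits every statement on peaks without an IgG partner: an IgG peak below the listing threshold would not be seen.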
